A study of Mus musculus with 2 samples.

Results

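The miR-17-92 cluster is a set of microRNAs cut from 1 primary transcript, that of the long noncoding RNA gene Mir17hg. It was described here in cultured vascular smooth muscle cells of diabetic and control mice. The 8 members were the rows named mmu-miR-17-5p, mmu-miR-17-3p, mmu-miR-18a-5p, mmu-miR-18a-3p, mmu-miR-19a-3p, mmu-miR-20a-5p, mmu-miR-19b-3p and mmu-miR-92a-3p, written below without the species prefix, out of 1909 mature microRNAs counted by small RNA sequencing. All 8 were found in both files. Per the labels, the donors were males between 10 and 12 weeks old, the tissue was the thoracic aorta, and the culture medium (DMEM/F-12) held 10% serum from fetal calves. The db/db group came from type 2 diabetic mice of the strain labelled BKS.Cg-m+/+Leprdb/J, which lack a working leptin receptor. The db/+ group came from control mice labelled Lepr+/-, heterozygous for that allele. Each group had 1 library and no replicates, and the number of mice behind a culture is not stated in the labels.

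MicroRNAs are small RNAs that guide Argonaute proteins to messenger RNAs, mainly through the seed, bases 2 to 8 of the mature strand. The primary transcript of Mir17hg is known to be driven by MYC and E2F factors and is best known for promoting cell proliferation. Its hairpins are released by Drosha and cut by Dicer into a 5p and a 3p strand, of which usually only 1 is kept. Among the products, miR-17-5p and miR-20a-5p are known to restrain the cell cycle inhibitor Cdkn1a, E2F1 and the TGF-beta receptor Tgfbr2. Matrix regulators such as connective tissue growth factor are known targets of miR-18a-5p, the miR-19 strands are known for promoting cell survival, and miR-92a-3p is best studied in endothelial cells, where it restrains integrin alpha 5.

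Per the GENCODE M21 annotation of GRCm38, Mir17hg lies on the plus strand at chr14:115042879-115046727. All 6 hairpins lie within exon sequence of its 1 annotated transcript, over 836 bases, in the order miR-17, miR-18a, miR-19a, miR-20a, miR-19b-1 and miR-92a-1. The first hairpin is at chr14:115043671-115043754 and the last at chr14:115044427-115044506. The mature sequences below are those of RefSeq on GRCm38.p6, 5′ to 3′ with the seed in capitals, and they are shown because the members fall into groups by seed.
miR-17-5p: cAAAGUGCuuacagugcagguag
miR-20a-5p: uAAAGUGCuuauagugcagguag
miR-18a-5p: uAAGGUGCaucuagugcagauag
miR-19a-3p: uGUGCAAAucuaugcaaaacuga
miR-19b-3p: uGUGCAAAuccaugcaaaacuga
miR-92a-3p: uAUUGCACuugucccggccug
miR-17-3p: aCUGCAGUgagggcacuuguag
miR-18a-3p: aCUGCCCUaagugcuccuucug
Counted from 1 at the 5′ end with the base of miR-17-5p first, miR-20a-5p differs by C1U and C12U. With the base of miR-19a-3p first, miR-19b-3p differs by U11C. Reads of such near-identical strands can be assigned to either, and the labels do not say how the authors treated them. Mature miR-19b-3p and miR-92a-3p each also have a second hairpin on chromosome X, in the miR-106a-363 cluster.

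The db/db library held 24295112 microRNA counts and the db/+ library 25915732. Counts are given as CPM, counts per 1000000 microRNA counts of the library, with no scaling by length, since a read stands for a mature strand of 21 to 23 bases. A count of 0 was taken to allow up to 3 counts, or 0.123 CPM in the db/db library and 0.116 CPM in the db/+ library. The 7 smooth muscle names on the list summed to 1635 CPM in db/db and 1691 CPM in db/+. Most of this was miR-143-3p, at 1167 CPM in db/db and 1202 CPM in db/+. By contrast, miR-133a-3p had 1 count in each library, and miR-145b 0 in db/db and 1 in db/+. For miR-1a-3p the level was 68.5 CPM in db/db and 35.5 CPM in db/+. The 2 endothelial names summed to 2.92 CPM in db/db and 0.270 CPM in db/+, and the 5 epithelial names to 0.906 CPM in db/db and 0.232 CPM in db/+. The 3 mesenchymal names summed to 7539 CPM in db/db and 10352 CPM in db/+. The 8 blood and immune names summed to 45.2 CPM in db/db and 67.7 CPM in db/+. Of these, 3 in db/db and 4 in db/+ were at 0, and miR-155-5p made up most of the sum. The part of other cells in the values below was not tested, and in such bulk RNA fewer cells of a type and less RNA per cell cannot be told apart.

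The 8 strands together had 303 CPM in the db/db library (7363 counts) and 372 CPM in the db/+ library (9633 counts). The ratio of db/db over db/+ was 0.815, with an exact 95% counting interval of 0.791 to 0.841. The sum was dominated by miR-92a-3p, and without it the other 7 had 66.3 CPM in db/db and 139.6 CPM in db/+, a ratio of 0.475 (0.447 to 0.504). All intervals cover counting error only, since the reads carry no molecular identifiers and nothing measures how far mice or cultures vary. With a single library for each genotype, no test of a difference between genotypes was possible, and no p-value was computed.

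**Figure D1:**
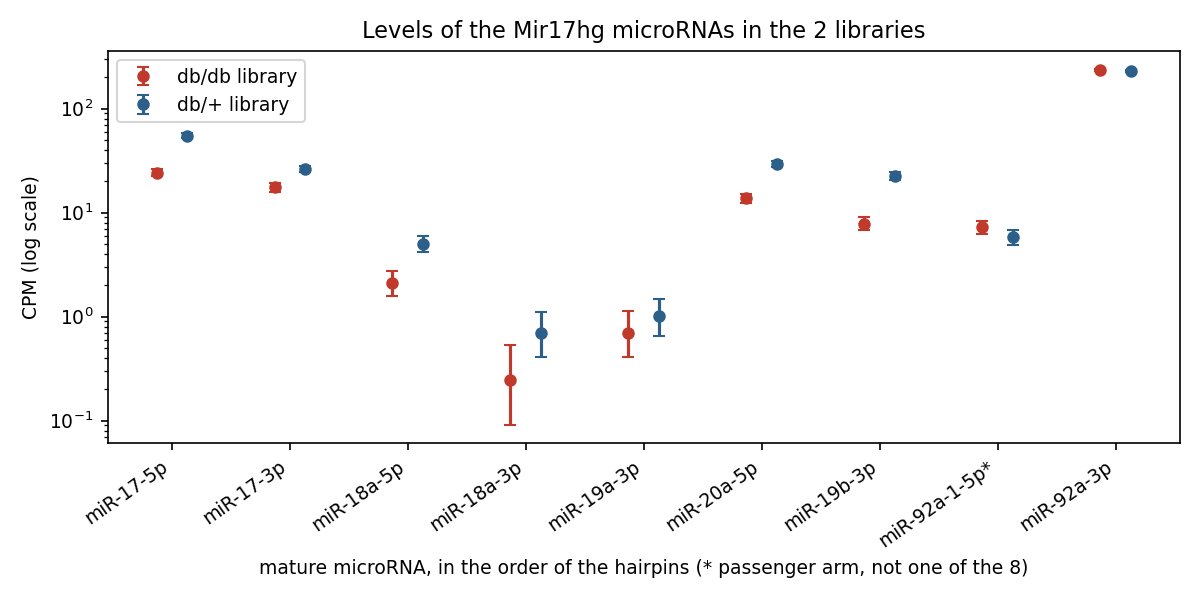
Level of each Mir17hg microRNA in CPM (log axis), in the order of the hairpins, in the db/db library (red, left) and the db/+ library (blue, right). Bars are exact 95% Poisson intervals, which cover counting error only. The points of miR-92a-3p nearly coincide, at 237 CPM in db/db and 232 CPM in db/+, while those of miR-17-5p, miR-20a-5p and miR-19b-3p lie lower in db/db.

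The strands of the AAAGUGC seed, miR-17-5p and miR-20a-5p, were both lower in the db/db library. For mmu-miR-17-5p the level was 24.2 CPM in db/db (589 counts) and 54.9 CPM in db/+ (1422 counts), a ratio of 0.442 (0.401 to 0.487). For mmu-miR-20a-5p it was 13.7 CPM in db/db (333 counts) and 29.3 CPM in db/+ (760 counts), a ratio of 0.467 (0.410 to 0.532). The counting intervals of the 2 libraries were apart for both strands. The share of all microRNAs with intervals apart is not given here, so this is not shown to be particular to them. The level of miR-17-5p over that of miR-20a-5p was 1.77 in db/db and 1.87 in db/+, and the ratio of these ratios, 0.945, had a 95% log-normal (Woolf) interval of 0.805 to 1.11. A difference between the 2 strands in their ratios was thus not detectable at this depth. Reads of 1 strand assigned to the other would bring the 2 ratios together, and how far this happened was not tested.

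Of the miR-19 strands, mmu-miR-19b-3p had 7.82 CPM in db/db (190 counts) and 22.5 CPM in db/+ (583 counts). Its ratio of 0.348 (0.294 to 0.410) was the lowest of the 6 members that reached 50 counts in a library. Its sister strand miR-19a-3p was rare, with 17 counts in db/db and 26 in db/+. The interval of miR-19a-3p, around a ratio of 0.697, ran from 0.355 to 1.34 and included 1. The 2 strands share the whole seed, yet miR-19b-3p held nearly all counts of that seed in both libraries.

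Among the 798 of 967 detected microRNAs with a RefSeq sequence, the seed of mmu-miR-18a-5p was on no other strand. It had 2.10 CPM in db/db (51 counts) and 4.98 CPM in db/+ (129 counts), a ratio of 0.422 with a wider interval of 0.299 to 0.587. From the other arm of its hairpin, miR-18a-3p had only 6 counts in db/db and 18 in db/+ (ratio 0.356, interval 0.116 to 0.935). Both strands were lower in db/db, on few counts.

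The most abundant member, mmu-miR-92a-3p, did not share this pattern. It had 236.8 CPM in db/db (5752 counts) and 232 CPM in db/+ (6014 counts), a ratio of 1.02 (0.984 to 1.06). The ratio was 1.06 to 1.09 under 5 other scalings of the libraries. It ranked 61 among all microRNAs in db/db and 65 in db/+.

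The other arm of that hairpin, miR-92a-1-5p, is not among the 8 but is made from the Mir17hg hairpin alone. It had 176 counts in db/db (7.24 CPM) and 151 in db/+ (5.83 CPM), a ratio of 1.24 with an interval of 0.995 to 1.56. Thus neither arm of the last hairpin was lower in the db/db library. From the same primary transcript, miR-17-5p and miR-20a-5p had ratios below 0.5. So did miR-19b-3p, which also has a hairpin on chromosome X. The interval of miR-20a-5p reached 0.532, while those of miR-17-5p and miR-19b-3p stayed below 0.5. For comparison, the hairpins of miR-17 and of miR-92a-1 are shown with both mature strands in capitals.
Mir17: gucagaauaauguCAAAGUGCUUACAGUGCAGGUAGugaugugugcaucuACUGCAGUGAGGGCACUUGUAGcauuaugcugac
Mir92-1: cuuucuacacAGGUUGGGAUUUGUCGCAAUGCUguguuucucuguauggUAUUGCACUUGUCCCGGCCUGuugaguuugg

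A microRNA was called lower or higher in db/db where its ratio was no more than 0.5 or no less than 2 and 1 of its counts or both reached 50. By this rule 4 of the 6 members past that floor were lower in the db/db library and 0 were higher. The 4 were miR-19b-3p, miR-18a-5p, miR-17-5p and miR-20a-5p, and the other 2 were miR-17-3p and miR-92a-3p. Among all 356 microRNAs past the floor, 13.5% met it for lower in db/db and 4.49% for higher. The median log2 ratio was -1.14 over the 6 members and -0.14 over all 356. Ranked from the lowest log2 ratio, miR-19b-3p stood at place 24 of 356, miR-18a-5p at 36, miR-17-5p at 37, miR-20a-5p at 41, miR-17-3p at 85 and miR-92a-3p at 211. Members of 1 transcript are not replicates of a condition, so the count describes these 2 libraries.

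**Figure D2:**
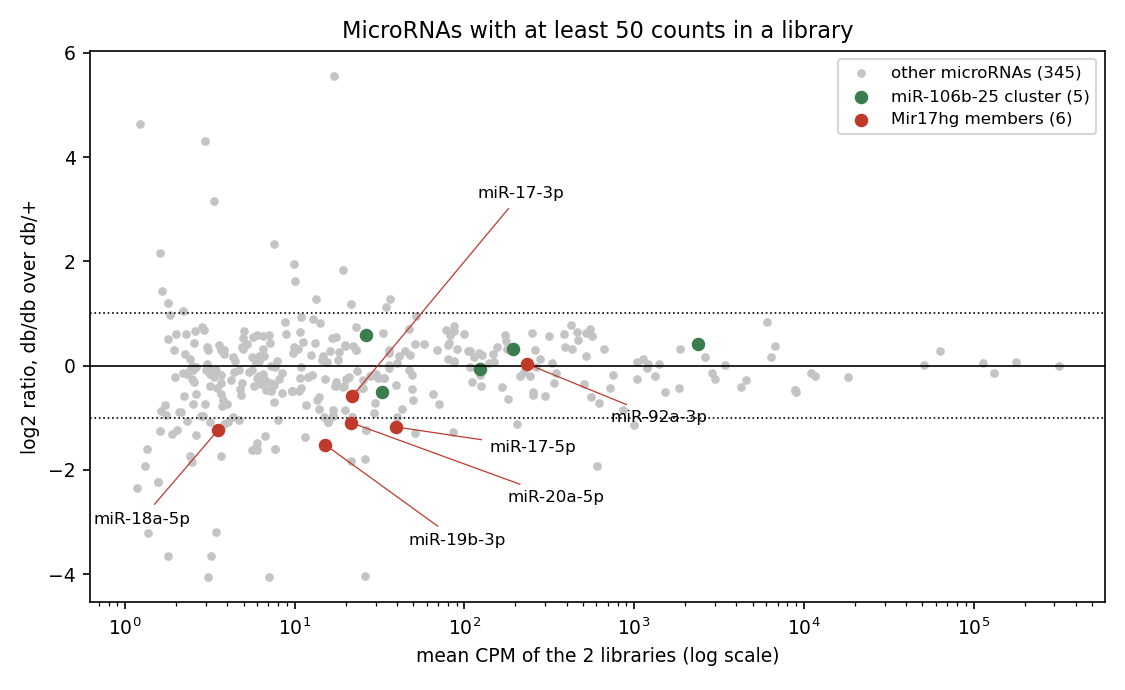
Log2 ratio of db/db over db/+ against the mean CPM of the 2 libraries (log axis), 1 point for each of the 356 microRNAs past the floor of 50 counts. Red points are Mir17hg members, green points the miR-106b-25 cluster, and dotted lines mark a 2-fold difference. The 4 members below the lower dotted line have log2 ratios of -1.10 to -1.52, while miR-92a-3p lies at 0.03.

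Ratios between members within a library do not depend on scaling. A trend with GC content, given below, is not removed by them. Of the 6 members past the floor, miR-92a-3p and miR-17-3p have the highest GC content. Of the 15 pairs among the 6 members, 11 had a ratio of ratios whose 95% Woolf interval excluded 1, and these were all 5 pairs with miR-92a-3p, all 4 other pairs with miR-17-3p, and 2 of the 6 pairs among the 4 lower strands. For every 1 count of miR-92a-3p there were 0.102 counts of miR-17-5p in db/db and 0.236 in db/+, a ratio of ratios of 0.433 (0.391 to 0.480). The pairs among the lower strands that excluded 1 were miR-19b-3p with miR-17-5p (0.787, interval 0.651 to 0.951) and with miR-20a-5p (0.744, interval 0.604 to 0.916). The intervals were not adjusted for the number of pairs. The share of such pairs among all microRNAs is not given here, so the count is not shown to be particular to this cluster.

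The composition of the cluster differed between these 2 libraries. The share of the members' counts on miR-92a-3p was 78.1% (exact binomial 95% interval 77.2 to 79.1) in db/db and 62.4% (61.5 to 63.4) in db/+. The share on miR-17-5p was 7.999% (7.39 to 8.64) in db/db and 14.8% (14.1 to 15.5) in db/+, and that on miR-19b-3p was 2.58% (2.23 to 2.97) in db/db and 6.05% (5.58 to 6.55) in db/+. Shares on miR-20a-5p were 4.52% in db/db and 7.89% in db/+. The intervals of the 2 libraries, which cover counting error only, were apart for each of these 4 strands. How often that holds for other sets of microRNAs is not given here.

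Arm usage differed for 1 of the hairpins. The miR-17 hairpin had 589 counts on the 5p and 425 on the 3p strand in db/db, and 1422 counts on the 5p and 681 on the 3p strand in db/+. Its 5p share was 58.1% (55.0 to 61.1) in db/db and 67.6% (65.6 to 69.6) in db/+, so miR-17-3p was less far apart between the libraries than miR-17-5p. The level of miR-17-3p was 17.5 CPM in db/db and 26.3 CPM in db/+, a ratio of 0.666 (0.588 to 0.753).

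Among 204 hairpins with at least 50 counts over both named arms in each library, the median absolute difference in 5p share was 0.917 percentage points. For miR-17 the difference was -9.53 points (db/db minus db/+), and 22 of the 204, or 10.8%, differed by at least that much in either direction. In the paralogous miR-106b hairpin the 5p share also lay lower, at 46.2% (43.6 to 48.9) in db/db and 64.9% (62.4 to 67.2) in db/+. There the 3p strand was higher in db/db, with 766 counts against 542 in db/+ (ratio 1.51, interval 1.35 to 1.69). Both strands of the miR-17 hairpin were lower in db/db.

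In the other hairpins of Mir17hg the 5p shares of the libraries had overlapping intervals. For miR-18a the share was 89.5% in db/db and 87.8% in db/+, for miR-20a 97.7% in db/db and 98.4% in db/+, and for miR-92a-1 2.97% in db/db and 2.45% in db/+. The remaining other-arm strands were near 0, with 8 counts in db/db and 12 in db/+ for miR-20a-3p. For miR-19a-5p there were 0 counts in db/db and 4 in db/+, and for miR-19b-1-5p 0 in db/db and 3 in db/+.

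**Figure D3:**
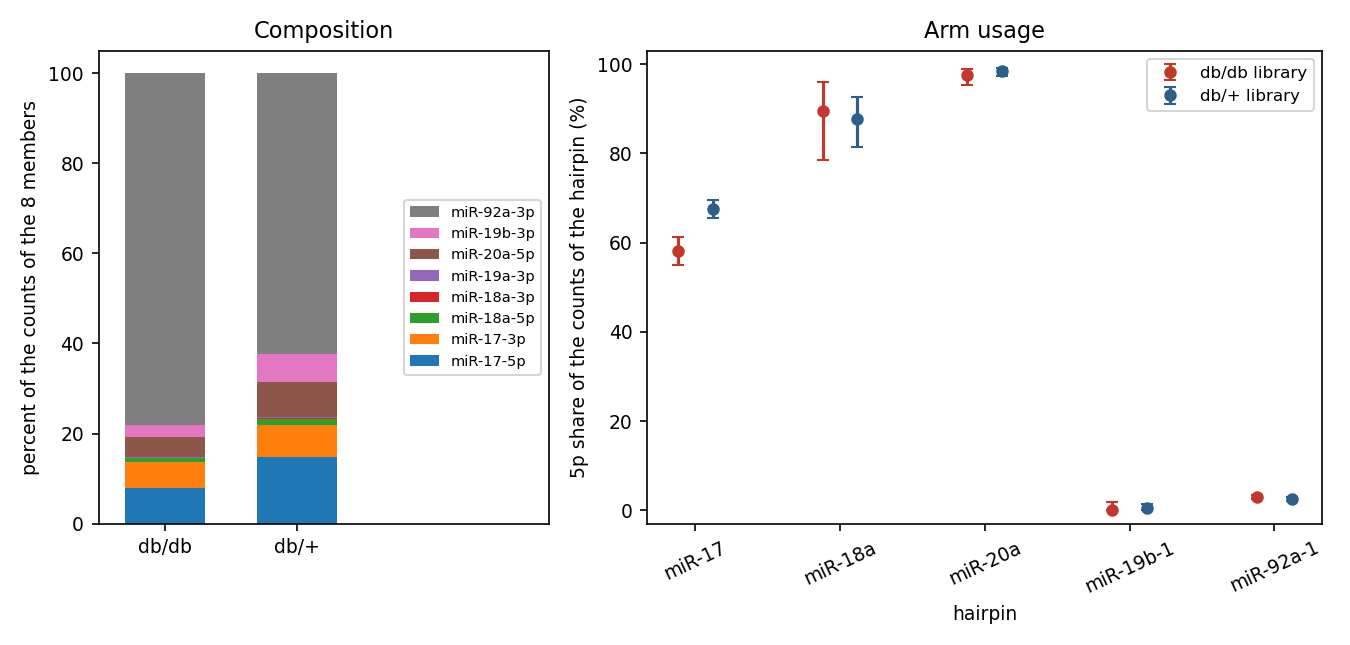
Left, stacked bars with the percent of the members' counts on each of the 8 strands in the db/db and the db/+ library. Right, the 5p share of the counts of 5 Mir17hg hairpins with exact binomial 95% intervals; the miR-17 share is 58.1% in db/db (red) and 67.6% in db/+ (blue), and miR-92a-3p fills 78.1% of the db/db bar and 62.4% of the db/+ bar.

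The mouse genome has 2 paralogous clusters. The miR-106a-363 cluster on chromosome X had 0 counts on all 10 of its own names in both libraries, which allows each name up to 0.123 CPM in db/db and 0.116 CPM in db/+. Those names include miR-19b-2-5p and miR-92a-2-5p, the other arms of the second hairpins of miR-19b-3p and miR-92a-3p. For miR-19b this says little, since the matching Mir17hg arm miR-19b-1-5p itself had 0 counts in db/db and 3 in db/+. How far the second hairpins add to the counts of the 3p strands was not tested. The miR-106b-25 cluster, in an intron of the replication helicase gene Mcm7 on chromosome 5, was present. Its 6 names summed to 3119 CPM in db/db and 2403 CPM in db/+, a ratio of 1.30 (1.28 to 1.31). This sum was dominated by miR-25-3p, with 2726 CPM in db/db and 2045 CPM in db/+. Of the other names of the cluster past the floor, miR-93-5p had a ratio of 0.953 and miR-106b-5p of 0.703. Higher in db/db were miR-25-5p (1.24) and miR-106b-3p (1.51).

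Seed partners from that cluster carry the seed of miR-17-5p or that of miR-92a-3p. The seed of miR-92a-3p is also on miR-92b-3p from chromosome 3. These partners are shown because they differ from the members outside the seed.
miR-93-5p: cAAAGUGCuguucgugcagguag
miR-106b-5p: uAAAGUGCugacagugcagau
miR-25-3p: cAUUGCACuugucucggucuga
miR-92b-3p: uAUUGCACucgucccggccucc
Of the deposited names, 1623 had a RefSeq mature sequence, and of the 14 non-members among them that share a seed with a member, 4 reached 50 counts. Of these 4, 0 were called lower or higher, beside 13.5% lower and 4.49% higher over all 356 microRNAs past the floor. So few names cannot be told apart from those shares.

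With the seed AAAGUGC, miR-93-5p had 120.6 CPM in db/db (2929 counts) and 126.4 CPM in db/+ (3277 counts), a ratio of 0.953 (0.907 to 1.002). This ratio was 0.993 to 1.02 under 5 other scalings. For miR-106b-5p the levels were 27.1 CPM in db/db (659 counts) and 38.6 CPM in db/+ (1000 counts), a ratio of 0.703 (0.636 to 0.776). The ratio of miR-17-5p was 0.463 times that of miR-93-5p (Woolf interval 0.416 to 0.516) and 0.629 times that of miR-106b-5p (0.548 to 0.721). For miR-20a-5p the same quotients were 0.490 (0.427 to 0.563) and 0.665 (0.565 to 0.782). The Mir17hg strands were thus lower in db/db by more than their seed partners were.

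Summed over all names with the seed AAAGUGC, the level was 186 CPM in db/db and 249 CPM in db/+, a ratio of 0.745 (0.717 to 0.774). The 2 Mir17hg strands made up 20.4% of these counts in db/db and 33.8% in db/+. Among the names with a RefSeq sequence, no other shared the seed GUGCAAA of the miR-19 strands, and that seed summed to 8.52 CPM in db/db and 23.5 CPM in db/+, a ratio of 0.363 (0.308 to 0.425).

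With the seed AUUGCAC, miR-25-3p was far more abundant than miR-92a-3p, at 2726 CPM in db/db (66221 counts) and 2045 CPM in db/+ (53002 counts), a ratio of 1.33 (1.32 to 1.35). Relative to it, miR-92a-3p had a ratio of ratios of 0.766 (0.737 to 0.795). Also with this seed, miR-92b-3p had 289 counts in db/db and 350 in db/+, a ratio of 0.881 (0.751 to 1.03). Over all names with this seed the level was 2975 CPM in db/db and 2292 CPM in db/+, of which miR-92a-3p was 7.96% in db/db and 10.1% in db/+.

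**Figure D4:**
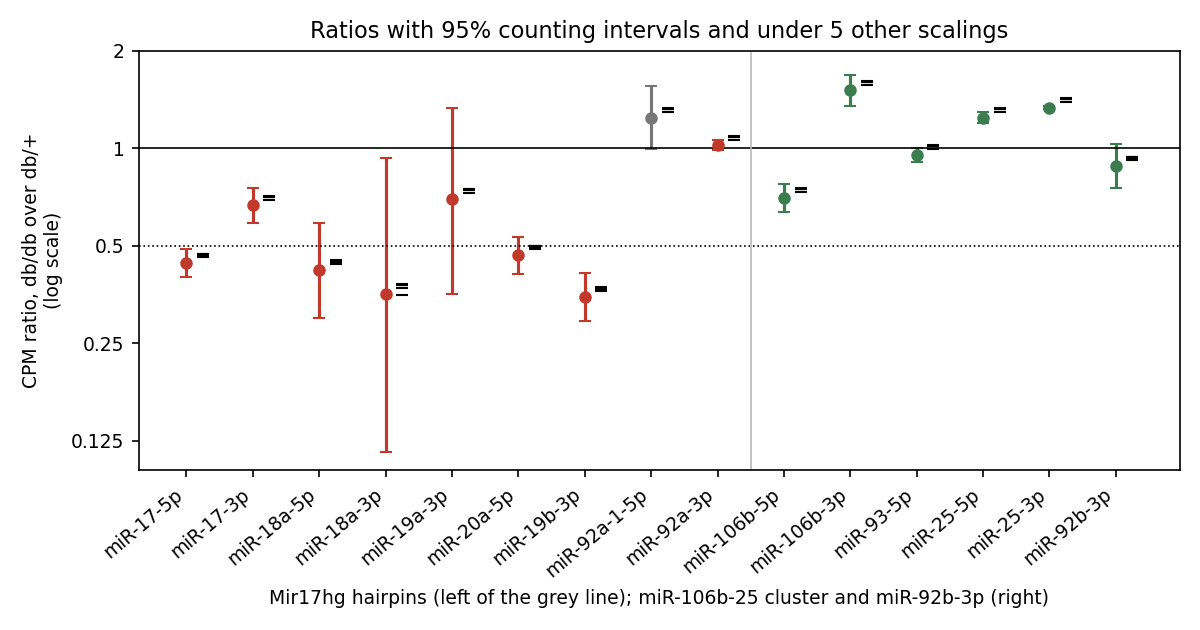
Ratio of CPM, db/db over db/+ (log axis), of the Mir17hg strands (red), the miR-92a-1-5p arm (grey), and the miR-106b-25 cluster with miR-92b-3p (green). Points carry exact 95% counting intervals, black ticks are 5 other scalings, and dotted and solid lines mark 0.5 and 1. The points of both miR-18a strands and of miR-19b-3p, miR-17-5p and miR-20a-5p lie below 0.5, and none of the green points does. Over all 356 microRNAs past the floor, 13.5% were called lower.

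The members also differ in base composition. The GC content of the mature strand was 39.1% for miR-19b-3p and miR-20a-5p, 43.5% for miR-18a-5p, 47.8% for miR-17-5p, 54.5% for miR-17-3p and 57.1% for miR-92a-3p. Of these 6 members past the floor, the 2 with the highest GC content were those not called lower. Below the floor, miR-18a-3p had 54.5% GC and a ratio of 0.356 (0.116 to 0.935). For miR-19a-3p the GC content was 34.8% and the ratio 0.697 (0.355 to 1.34). Their intervals overlap, so these 2 cannot be placed in an order. Over the 286 microRNAs past the floor with a RefSeq sequence, GC content and log2 ratio had a Spearman correlation of 0.380, as a description across microRNAs of the same 2 libraries.

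In these 286, the median log2 ratio was -0.45 below 40% GC, -0.20 from 40% to below 50%, and 0.21 at 50% and over. At least 2-fold lower in db/db were 15.2%, 14.2% and 6.72% of microRNAs in those bands, in the same order. With a straight line on GC content removed and the overall median log2 ratio of -0.14 put back, the ratio was 0.450 for miR-17-5p, 0.466 for miR-18a-5p, 0.412 for miR-19b-3p, 0.554 for miR-20a-5p, 0.603 for miR-17-3p and 0.883 for miR-92a-3p. With that adjustment 3 of the 6 members were called lower, without miR-20a-5p, against 11.5% of the 286. Without putting the median back, which was tried after the data were seen, 2 of the 6 were called lower, miR-19b-3p (0.454) and miR-17-5p (0.496), against 9.09% of the 286, and miR-18a-5p had 0.513.

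**Figure D5:**
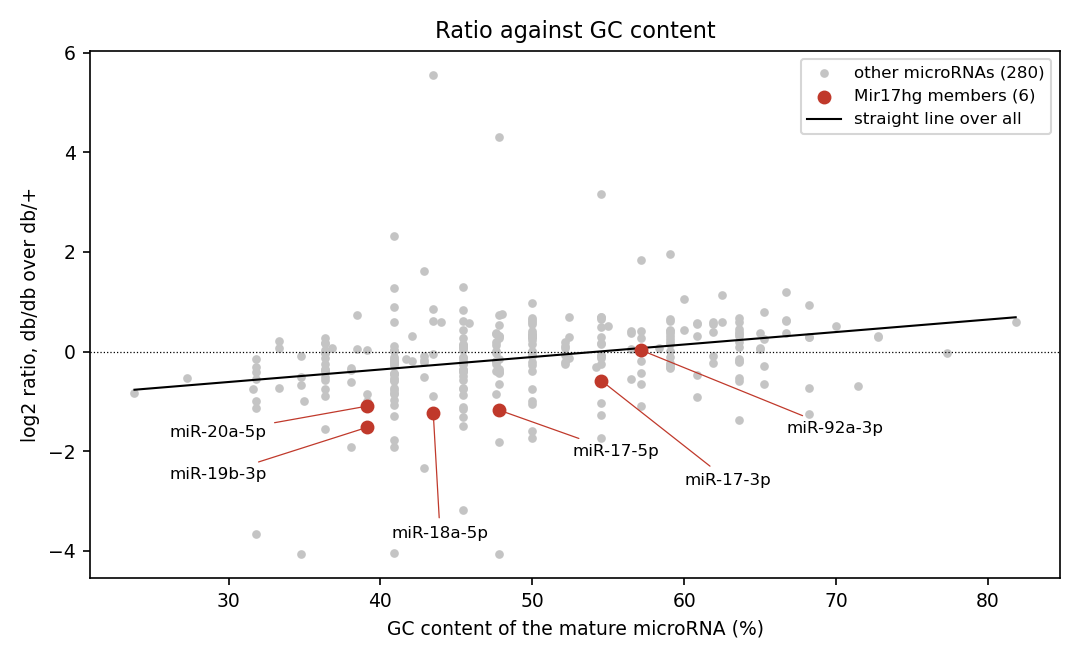
Log2 ratio of db/db over db/+ against the GC content of the mature microRNA in percent, for 286 microRNAs past the floor with a RefSeq sequence. Red points are the 6 Mir17hg members and the line is a straight-line fit to all points, rising by 0.25 per 10 percentage points of GC. All members but miR-92a-3p lie well below the line, and miR-92a-3p lies close to it.

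Outside the cluster, the microRNAs most like it were taken from those with at least 100 counts in each library. They were the 5 whose log2 ratio was nearest to the members' median of -1.14, ties included, over 2 libraries only. They were miR-129-2-3p (-1.15), miR-16-5p (-1.12), miR-466a-3p and miR-466e-3p (-1.08 each, with identical counts) and, tied for the last place with identical counts, miR-669a-3p and miR-669o-3p (-1.24 each). The likeness is in the ratio alone, since miR-129-2-3p had 617 CPM in db/db and 1368 CPM in db/+, while miR-466a-3p had 10.04 CPM in db/db and 21.2 CPM in db/+.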

How the data were processed

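Mature microRNAs were measured by small RNA sequencing, with 1 library each for db/db and db/+. Each library has raw counts of reads per mature microRNA and, beside them, reads that the authors normalized by TMM (trimmed mean of M values), per the file headers. The authors rounded the second kind to whole numbers, so it was taken as a score and used in 1 alternative scaling. Novoalign, edgeR and the assembly mm10 are named, without versions or roles, in the submitters' processing notes. Trimming, allowed mismatches and the handling of ambiguous reads are not given in the sources used here.

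Counts were scaled to the library total. Ratios of db/db over db/+ carry exact conditional (Clopper-Pearson) 95% intervals, and ratios of ratios carry Woolf intervals. Log2 ratios had 0.5 counts added. The edgeR quasi-likelihood test needs residual degrees of freedom and could not be fitted. Alternatives were edgeR 4.0.16 TMM and upper-quartile factors, DESeq2 1.42.0 size factors, the total without the 10 most abundant microRNAs, other floors and added counts, and removal of a GC trend, for which 80.3% of microRNAs past the floor had a sequence. Computations used Python 3.11.15 with scipy 1.17.1 and were tested on simulated data.

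Members, every other arm of the 6 hairpins, the paralogs and the seed partners with at least 50 counts were named, besides the 5 nearest in ratio. The members and lists were chosen with earlier results of these data known.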

Additional observations from a re-analysis of the deposited data

How the results depend on the processing

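The count of 4 members at least 2-fold lower in db/db was also 4 under each of the 5 other scalings and at a floor of 100 counts. It was 5 at a floor of 10 counts and with no floor, where miR-18a-3p entered. It was 5 at 1.5-fold, where miR-17-3p entered, and 3 with the GC trend removed. At the floor of 10, miR-18a-3p passed only through db/+ (18 counts, against 6 in db/db). At the floor of 100, miR-18a-5p passed only through db/+ (129 counts, against 51 in db/db). Both were thus kept by the library where they are higher, so they lend the count no support. At 1.5-fold, miR-17-3p lay just inside the limit, at a ratio of 0.666, and had 0.693 to 0.712 under the 5 other scalings. Over all microRNAs, 11.9% were called lower at a floor of 100 counts, 16.5% at 10, 26.8% with no floor, 24.2% at 1.5-fold and 11.5% with the GC trend removed. That share is not given here for the 5 other scalings, so the count of 4 has no matching share under them. With the trend removed and the median not put back, an alternative chosen after seeing the data, the count was 2 and the median log2 ratio -0.84. Under upper-quartile factors miR-20a-5p lay just inside the limit, at a ratio of 0.4999. The count at least 2-fold higher was 0 throughout. The median log2 ratio of the members was between -0.98 and -1.14 over the other alternatives. The summed ratio of the 8 strands was 0.866 with edgeR TMM factors and with the deposited TMM reads, 0.872 with upper-quartile factors, 0.868 with DESeq2 size factors and 0.849 without the 10 most abundant microRNAs. It was 0.475 without miR-92a-3p and 0.499 without miR-92a-3p and miR-19b-3p. By construction each scaling moves all ratios alike, by 0.06 to 0.10 on the log2 scale. Of the alternative values that answer a comparison, 43 did not move beyond their counting interval or 1.5 times, and 9 did. Those 9 included the summed ratio of the 8 strands under each of the 5 other scalings. Of those for single microRNAs, 77 stayed inside their counting interval and 26 left it, among them miR-92a-3p under every other scaling and with the GC trend removed either way. The share of all microRNAs called lower was 12.8% with identical counts taken once. Depth limits miR-18a-3p and miR-19a-3p most, since neither reached 50 counts. No paired analysis was possible because there were only 2 libraries, 1 per genotype, and dropping either would leave nothing to compare.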
